A study of Rattus norvegicus with 20 samples.

Results

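Toll-like receptors are the proteins with which lung cells and leukocytes sense microbial molecules, and 10 genes of this system are described here in rat lung: the receptors Tlr2, Tlr3, Tlr4, Tlr5, Tlr7 and Tlr9, the lipopolysaccharide co-receptors Cd14 and Ly96, the adaptor Myd88 and the inhibitory kinase Irak3. They were picked by gene symbol out of 19060 genes in the deposited table, and all 10 were present and passed the filter on low counts that left 14794 genes for testing. RNA sequencing was done on whole lung from 20 rats in 4 groups of 5. Sham animals had a laparotomy in which the cecum was handled but neither tied nor pierced. CLP animals had cecal ligation and puncture, in which the cecum is tied off and pierced so that its contents leak and cause sepsis, here as a model of acute respiratory distress syndrome. The Sham+VNS and CLP+VNS animals had the same operations together with stimulation of the right cervical vagus nerve. The strain, sex and age of the rats, the time of sampling, the settings of the stimulation and any handling of the nerve in the unstimulated groups were not stated in these sources.

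A Toll-like receptor that binds its ligand brings adaptor proteins to its inner domain. Myd88 serves every receptor described here except Tlr3, which signals through the adaptor Ticam1, while Tlr4 uses both. Through Myd88 the kinases Irak4 and Irak1 and the ligase Traf6 switch on NF-kappaB and inflammatory genes. The Ticam1 branch is a route to interferon. Tlr2, Tlr4 and Tlr5 sit at the cell surface and sense bacterial lipoproteins, lipopolysaccharide and flagellin. Tlr3, Tlr7 and Tlr9 sit in endosomes and sense double-stranded RNA, single-stranded RNA and CpG-rich DNA. In the lung these genes are used by alveolar macrophages, neutrophils, epithelium and endothelium.

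The 20 libraries held 13729654 to 14453188 assigned fragments each in the deposited gene counts, so 1 count was worth about 0.07 CPM (counts per 1000000 counts of the library). Lung markers were present, with the surfactant gene Sftpc at 13209 CPM on average in Sham. The summed CPM of 15 neutrophil markers ran from 386 to 1030 in Sham, from 328 to 796 in Sham+VNS, from 4418 to 6217 in CLP and from 2119 to 5804 in CLP+VNS, and of these markers Ltf was at or near 0 in every group. S100a8, S100a9 and Lcn2 carried 70.1% to 91.4% of that sum. Without these 3 genes, left out after their levels were seen, the sum was 85.7 to 186 CPM in Sham and 477 to 931 CPM in CLP, and under stimulation 74.0 to 184 CPM with the sham operation and 203 to 701 CPM with CLP. The sum of 13 monocyte and macrophage markers was almost all Lyz2, 96.1% to 97.9% of it, and overlapped among the groups. The other 12 markers summed to 383 to 440 CPM in Sham and 538 to 639 CPM in CLP, without overlap, and under stimulation to 384 to 497 CPM with the sham operation and 438 to 507 CPM with CLP. Sham replicate 1 stood apart with 1412 CPM of summed adipocyte markers, against 11.7 to 53.7 in the other Sham libraries, and with the lowest summed epithelial markers of its group, 25243 CPM. In whole tissue, fewer cells of a type and less RNA per cell cannot be told apart.

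After CLP, 8 of the 10 genes differed from Sham at an adjusted p below 0.05, 7 of them higher and 1 lower. Irak3, Tlr2, Cd14, Tlr5, Myd88, Tlr4 and Tlr7 rose, Tlr3 fell, and Tlr9 and Ly96 did not pass the test. Over all genes tested the same comparison called 40.3%, of which 19.8% of all genes were higher and 20.5% lower. For 5 of the 10 genes, every CLP library lay above every Sham library, against 13.4% of all genes with that pattern. The median log2 difference of the 10 genes was 0.64, against -0.01 over all genes. Tests were edgeR quasi-likelihood tests of all 20 libraries with Benjamini-Hochberg adjustment over the 14794 genes, and the same tool and adjustment stand behind every adjusted p here unless another is named.

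**Figure D1:**
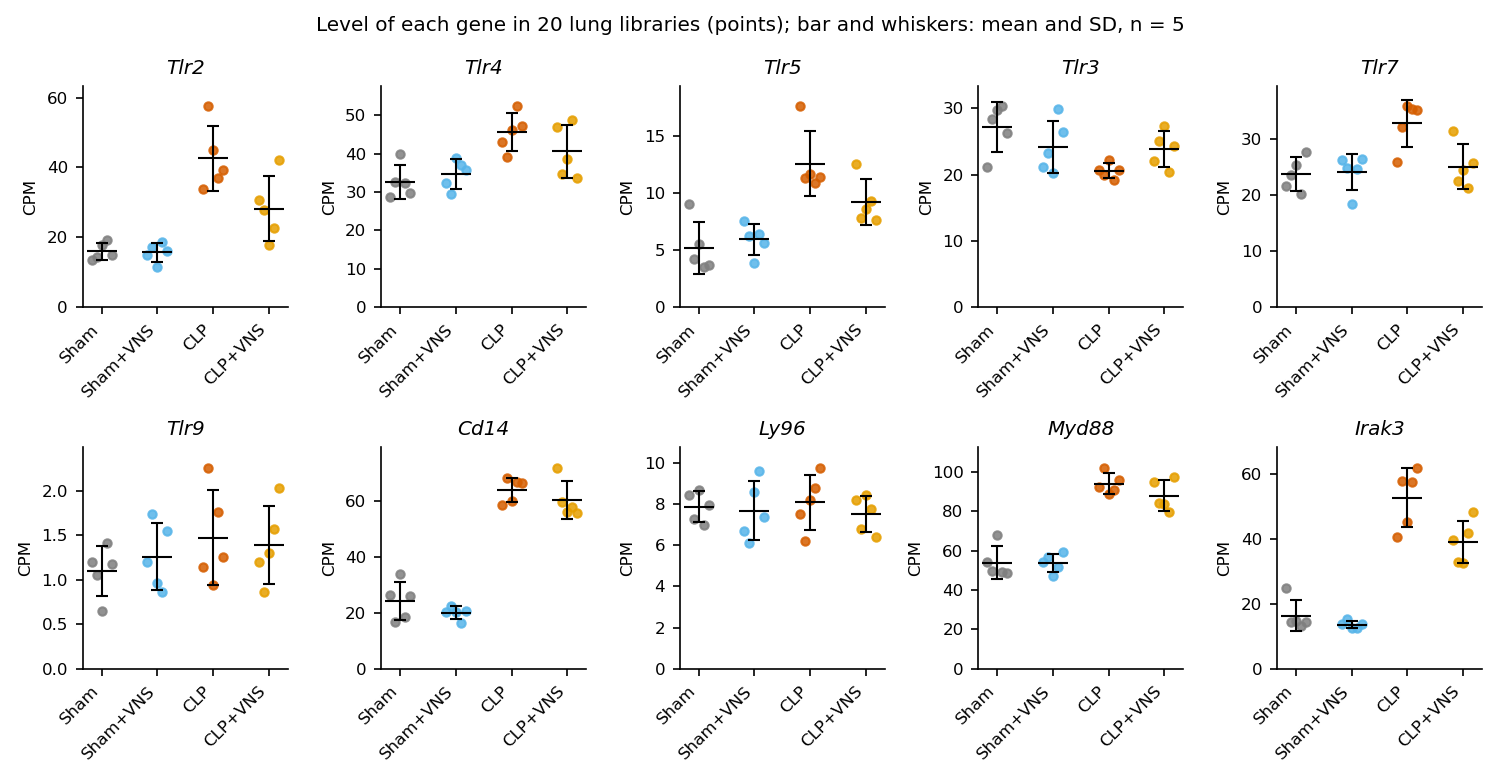
Level of each of the 10 genes in counts per 1000000 (CPM, vertical axes) in the 20 libraries; points are libraries, and bars with whiskers are the mean and SD of 5. Both CLP groups lie above both sham groups without overlap for Cd14, Myd88 and Irak3, while the 4 groups overlap for Ly96 and Tlr9.

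Tlr2, the surface receptor for bacterial lipoproteins (NCBI Gene 310553), was at 13.5, 14.4, 17.9, 19.3 and 15.0 CPM in the 5 Sham libraries. In the CLP libraries it was at 33.7, 57.6, 45.1, 37.1 and 39.4 CPM. The lowest CLP library stood well above the highest Sham library, and the mean was 2.66 times as high, with a log2 difference of 1.41 ± 0.20 (SE) and an adjusted p of 1.78e-05. The highest Tlr2 value belonged to CLP replicate 3, which also had the highest summed neutrophil markers of all libraries, 6217 CPM. Without that library the log2 difference was 1.28.

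Under stimulation Tlr2 was at 15.0, 17.2, 11.5, 18.8 and 16.1 CPM in Sham+VNS and at 30.7, 27.8, 17.8, 22.5 and 42.1 CPM in CLP+VNS. These groups overlapped by 1 library, and the coefficient of variation of 32.7% in CLP+VNS was the highest of the 4 groups. The rise over Sham+VNS was 0.84 ± 0.20 on the log2 scale (adjusted p 0.00332). Within CLP+VNS the lowest Tlr2 value was in replicate 5, the library with the lowest neutrophil marker sum of the group (2119 CPM), and the highest was in replicate 11, with the highest sum (5804 CPM). The part of neutrophil content in the differences of Tlr2 was not tested.

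Both annotated Tlr2 transcripts rose in CLP against Sham. In CLP+VNS against Sham+VNS only the predicted model was called, at 1.16 ± 0.20 (adjusted p 0.0012). The curated model, at 0.73 ± 0.23, did not pass the test there (adjusted p 0.0749). Without stimulation the curated RefSeq model held 75.7% of the gene's counts in Sham and 75.3% in CLP. It gained 1.40 ± 0.24 on the log2 scale (adjusted p 0.000559 over 38195 transcripts), and the predicted model gained 1.40 ± 0.20. The window of 250 bases before the start of Tlr2 in RefSeq's promoter table (build GRCr8) held the letters GGGNNTTCC, a pattern of the kind bound by NF-kappaB, read from both strands at overlapping positions. It is shown because Tlr2 had the largest difference among the 6 receptors described here; the 30 bases lie at chr2:171504743-171504772 on the minus strand, 215 to 186 bases before the start, with the matched letters in capitals. They fall inside the annotated gene, whose predicted transcript starts further upstream.
Tlr2 window: aggcccttggGGGAATTCCCatacggagcc
The same letters were found in 5.09% of 33469 promoter windows of this length, so the match describes the sequence and shows no binding.

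Tlr4, the lipopolysaccharide receptor (NCBI Gene 29260), was at 28.7, 32.7, 40.0, 32.4 and 29.8 CPM in Sham and at 43.0, 39.1, 46.3, 52.4 and 47.3 CPM in CLP. The groups overlapped by a single pair of libraries, and Tlr4 rose by a log2 difference of 0.48 ± 0.11 (adjusted p 0.00252). Under stimulation it was at 32.3, 29.4, 39.0, 37.0 and 35.7 CPM in Sham+VNS and at 46.9, 34.8, 38.6, 48.9 and 33.8 CPM in CLP+VNS. These groups overlapped broadly, and the log2 difference of 0.23 (95% interval -0.01 to 0.47) did not pass the test (adjusted p 0.154). Its single annotated transcript gave the same result as the gene in CLP against Sham, 0.47 ± 0.12.

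Tlr5, the flagellin receptor (NCBI Gene 289337), was at 9.03, 4.27, 5.52, 3.52 and 3.73 CPM in Sham and at 17.7, 11.4, 11.7, 10.9 and 11.4 CPM in CLP. The groups did not overlap, and replicate 1 was the highest library in both. Tlr5 rose by 1.27 ± 0.24 on the log2 scale (adjusted p 0.000279). The difference was 1.56 without Sham replicate 1, the library with many adipocyte transcripts, and 1.12 without CLP replicate 1. In Sham+VNS it was at 7.52, 6.26, 3.91, 6.42 and 5.63 CPM, and in CLP+VNS at 12.6, 7.82, 8.58, 9.34 and 7.65 CPM. Every CLP+VNS library lay above every Sham+VNS library, yet the log2 difference of 0.63 ± 0.23 missed the threshold (adjusted p 0.0536), and DESeq2 placed it below (adjusted p 0.0329). None of the 4 Tlr5 transcripts that could be tested was called, and several of them were at 0 in some libraries.

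Tlr3, the endosomal receptor for double-stranded RNA (NCBI Gene 364594), was the only one of the 10 genes that fell. It was at 21.2, 28.3, 29.8, 30.3 and 26.3 CPM in Sham and at 20.7, 19.9, 22.2, 19.2 and 20.7 CPM in CLP. The CLP libraries were close together, with an SD of 1.13 CPM, and overlapped Sham only through Sham replicate 1. Tlr3 fell by 0.40 ± 0.11 on the log2 scale (adjusted p 0.00655), and by 0.48 without Sham replicate 1. Under stimulation it was at 21.1, 23.2, 20.2, 29.8 and 26.4 CPM in Sham+VNS and at 22.1, 25.0, 27.4, 20.4 and 24.4 CPM in CLP+VNS. Those groups lay over each other, with a log2 difference of -0.02 (95% interval -0.25 to 0.21).

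Tlr7, the endosomal receptor for single-stranded RNA (NCBI Gene 317468), was at 21.5, 23.6, 25.4, 20.1 and 27.7 CPM in Sham and at 25.8, 32.1, 35.8, 35.2 and 35.1 CPM in CLP. Of the CLP libraries, 4 lay above all of Sham, and CLP replicate 1 lay within its range. Tlr7 rose by 0.47 ± 0.12 on the log2 scale (adjusted p 0.00431). In Sham+VNS it was at 26.3, 24.8, 18.4, 24.6 and 26.3 CPM, and in CLP+VNS at 31.5, 22.5, 24.4, 21.3 and 25.6 CPM. Apart from CLP+VNS replicate 1, the CLP+VNS libraries lay inside the range of Sham+VNS, and the log2 difference was 0.06 (95% interval -0.20 to 0.31). The 250 bases before the start of Tlr7 also held the NF-kappaB-type letters, on the opposite strand, at chrX:30644362-30644391 in GRCr8, 64 to 35 bases before the start. The last 102 of the 250 bases, the shown bases among them, lie inside the annotated gene. The capitals mark the match, shown for comparison with Tlr2.
Tlr7 window: atttcaaatttGGAAACCCCaaggcatgca
No such match was found in the windows of the other 7 genes with an entry in that table.

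Tlr9, the receptor for CpG-rich DNA (NCBI Gene 338457), was the least abundant of the 10, with 9 to 32 counts per library. It was at 1.20, 1.05, 0.653, 1.41 and 1.17 CPM in Sham and at 1.14, 2.26, 0.941, 1.76 and 1.25 CPM in CLP. The groups overlapped, and the log2 difference of 0.42 had a 95% interval from -0.18 to 1.02, so a difference of that size was not detectable at this depth (adjusted p 0.262). Its Sham+VNS libraries ran from 0.857 to 1.74 CPM and its CLP+VNS libraries from 0.861 to 2.04 CPM.

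Cd14, the protein that hands lipopolysaccharide to Tlr4 (NCBI Gene 60350), was at 26.4, 16.7, 33.8, 18.4 and 26.2 CPM in Sham and at 58.7, 68.2, 60.0, 67.0 and 66.3 CPM in CLP. The groups were far apart, with a log2 difference of 1.40 ± 0.14 (adjusted p 5.86e-07). In Sham+VNS it was at 20.2, 22.5, 20.4, 16.2 and 20.8 CPM, and in CLP+VNS at 72.0, 59.8, 55.9, 57.8 and 55.7 CPM. This difference, 1.59 ± 0.14, was the largest of the 10 genes under stimulation (adjusted p 3.51e-07). Both Cd14 transcripts rose after CLP, by 1.48 ± 0.16 for the curated model, which held 75.5% of the counts in Sham and 80.5% in CLP, and by 1.08 ± 0.23 for the predicted one.

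Ly96, also called MD-2, is the small protein that binds lipopolysaccharide together with Tlr4 (NCBI Gene 448830). It was at 8.47, 7.27, 8.71, 6.97 and 7.95 CPM in Sham and at 7.51, 6.22, 8.18, 8.79 and 9.78 CPM in CLP. The groups overlapped fully, with a log2 difference of 0.04 (95% interval -0.24 to 0.32, adjusted p 0.843). It ran from 6.12 to 9.64 CPM in Sham+VNS and from 6.39 to 8.44 CPM in CLP+VNS, with a log2 difference of -0.03 (95% interval -0.31 to 0.25). The 3 genes of the lipopolysaccharide receptor thus had unequal values. In deposited TPM (transcripts per 1000000 transcripts), which correct for length, the ratio of Cd14 to Tlr4 was 1.80 ± 0.46 (SD, n = 5) in Sham and 3.46 ± 0.47 in CLP, and that of Cd14 to Ly96 was 0.656 ± 0.146 in Sham and 1.74 ± 0.40 in CLP.

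Myd88, the shared adaptor (NCBI Gene 301059), was at 54.3, 49.5, 68.1, 49.3 and 48.4 CPM in Sham and at 92.1, 102, 88.6, 90.9 and 96.1 CPM in CLP. The CLP libraries lay above all Sham libraries and close together, and Myd88 rose by 0.80 ± 0.09 on the log2 scale (adjusted p 1.02e-06). In Sham+VNS it was at 54.2, 56.8, 47.2, 51.6 and 59.1 CPM, and in CLP+VNS at 95.0, 84.2, 83.8, 79.4 and 97.4 CPM. Again no library overlapped, with a difference of 0.71 ± 0.09 (adjusted p 7.34e-06). The gene has 1 annotated transcript, which rose by 0.80 ± 0.09.

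The 250 bases before the starts of Myd88 and Tlr3 are shown as examples. Both genes were called after CLP, and no annotated part of either reaches into its window. The window of Tlr4 also met this rule and is not printed. The matches did not follow the direction of change. The windows of Tlr4, Tlr5, Cd14 and Irak3, which rose, held none of the patterns, and that of Tlr9, which was not called, held the AP-1-type letters. Those of Tlr5, Cd14 and Irak3 lie wholly inside the annotated gene, and 9 windows are too few to test such a relation. Both printed windows come from RefSeq, build GRCr8, and read 5′ to 3′ along the gene. Myd88 lies on the minus strand at chr8:127956231-127956480, and Tlr3 on the plus strand at chr16:53554666-53554915. In the Myd88 window the capitals mark TGANTCA, an AP-1-type pattern 208 to 202 bases before the start, and GAAANNGAAA, an interferon-response-type pattern 16 to 7 bases before it.
Myd88 promoter: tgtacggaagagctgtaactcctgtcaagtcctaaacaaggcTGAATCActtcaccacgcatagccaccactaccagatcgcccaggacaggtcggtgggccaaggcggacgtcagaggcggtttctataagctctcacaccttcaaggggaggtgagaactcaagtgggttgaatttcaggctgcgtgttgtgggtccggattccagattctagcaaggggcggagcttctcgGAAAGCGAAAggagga
Tlr3 promoter: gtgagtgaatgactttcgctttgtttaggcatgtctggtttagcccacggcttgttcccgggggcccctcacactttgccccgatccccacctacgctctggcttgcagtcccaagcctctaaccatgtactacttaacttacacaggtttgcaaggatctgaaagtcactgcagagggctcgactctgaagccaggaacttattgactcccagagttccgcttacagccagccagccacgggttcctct
The Tlr3 window held none of the 5 patterns searched on both strands, which also included GAGGAAGT for PU.1 and TTGCNNAA for C/EBP. Over all 33469 windows, TGANTCA was found in 6.34% and GAAANNGAAA in 3.41%. Absence of a match says only that those letters are not in this window.

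Irak3, an Irak family member that restrains signalling from Myd88 (NCBI Gene 314870), was at 24.8, 14.4, 14.8, 13.2 and 14.5 CPM in Sham and at 40.7, 58.0, 45.4, 57.5 and 62.1 CPM in CLP. The groups did not overlap, and the log2 difference of 1.69 ± 0.16 was the largest of the 10 genes (adjusted p 3.05e-07). Sham replicate 1, with its adipocyte transcripts, was again the high Sham library, and without it the difference was 1.89. In Sham+VNS it was at 13.9, 15.4, 12.6, 12.5 and 13.7 CPM, and in CLP+VNS at 39.8, 33.1, 32.7, 41.8 and 48.3 CPM. No library overlapped, and the difference was 1.52 ± 0.16 (adjusted p 1.99e-06). Of 8 annotated Irak3 transcripts, 5 could be tested and 3 rose in CLP against Sham. The curated model, with 51.5% of the counts in Sham and 53.4% in CLP, rose by 1.75 ± 0.20. A pair of predicted models rose by 1.77 ± 0.32 and 1.81 ± 0.52. The curated model held 56.3% in Sham+VNS and 38.9% in CLP+VNS. Its CLP+VNS libraries ran from 32.0% to 42.8%, below the 44.1% to 63.9% of the CLP libraries. These shares were not tested.

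Across the 10 genes the annotation has 32 transcripts, of which 25 could be tested and 9 were higher and 0 lower after CLP. Over all transcripts tested 5.61% were higher and 5.33% lower. The 9 belonged to Tlr2, Tlr4, Cd14, Myd88 and Irak3. No transcript of Tlr3, Tlr5 or Tlr7 was called (unadjusted p from 0.107 to 0.789), and the deposited counts moved between their models from library to library. The Tlr5 model that led in Sham held 59.8% of the gene's counts there, 33.3% in Sham+VNS, 33.1% in CLP and 34.7% in CLP+VNS. Its libraries ran from 33.8% to 76.0% in Sham and from 5.01% to 47.5% in CLP, with overlap.

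The same operation can be compared with its control under stimulation, in 10 other libraries. In CLP+VNS against Sham+VNS, 4 of the 10 genes were called, all higher: Cd14, Irak3, Tlr2 and Myd88. Over all genes this comparison called 27.3%, 13.9% higher and 13.4% lower. In 4 of the 10 genes every CLP+VNS library lay above every Sham+VNS library, against 9.65% of all genes, namely Tlr5, Cd14, Myd88 and Irak3. The genes called without stimulation and not with it were Tlr4, Tlr5, Tlr7 and Tlr3. That contrast is not itself a difference between the comparisons, which the interaction tested.

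**Figure D2:**
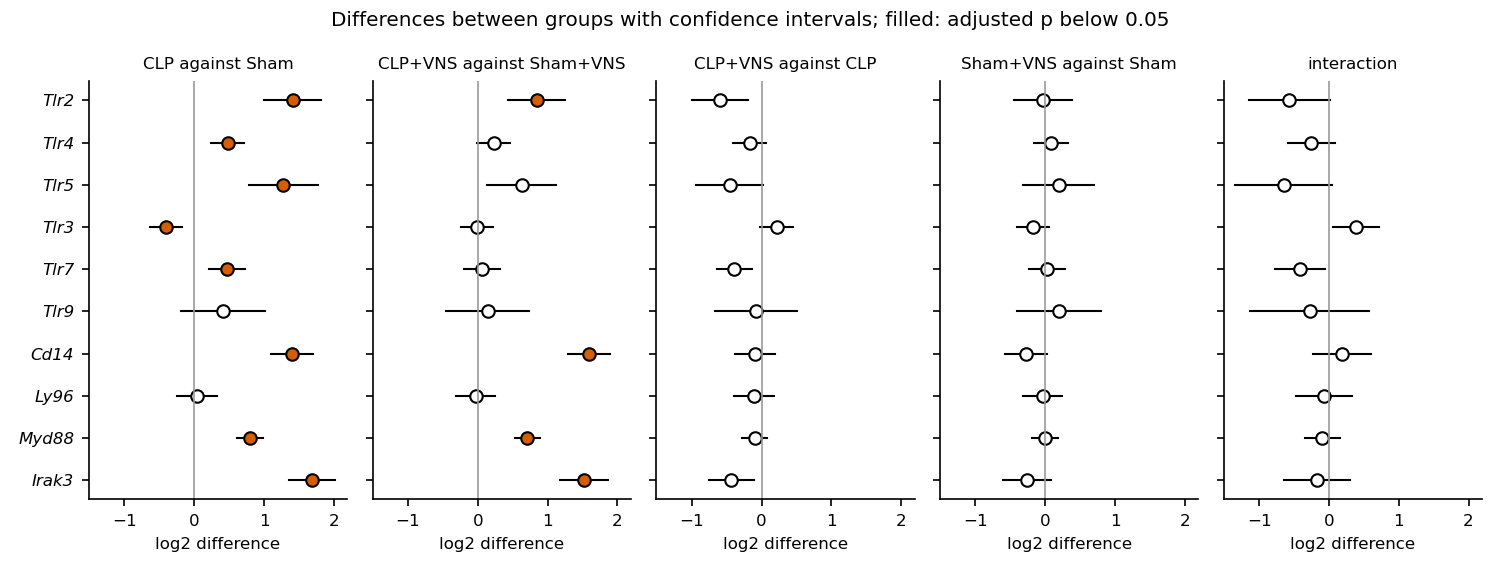
Log2 differences (horizontal axes) of the 10 genes in the 4 comparisons of groups and in the interaction, with 95% confidence intervals as lines. Filled points have an adjusted p below 0.05: 8 in CLP against Sham, 4 in CLP+VNS against Sham+VNS and 0 elsewhere.

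The interaction, the effect of stimulation in CLP animals minus that in sham animals, called 0 of the 10 genes and 0 of all genes (0%) by edgeR, and DESeq2 called 0 of the 10. At an unadjusted p below 0.05 it held 2 of the 10 genes, against 8.23% of all genes. These were Tlr3 at 0.39 ± 0.16 (unadjusted p 0.0224, adjusted p 0.55) and Tlr7 at -0.41 ± 0.17 (unadjusted p 0.0258, adjusted p 0.557). For Tlr2 the interaction was -0.57 with a 95% interval from -1.15 to 0.01, and for Cd14 it was 0.19 with an interval from -0.23 to 0.61.

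Stimulation after CLP was compared next, with the CLP libraries that also enter CLP against Sham. In CLP+VNS against CLP, 0 of the 10 genes were called by edgeR and 0 by DESeq2, and over all genes edgeR called 4, or 0.027%. At an unadjusted p below 0.05 there were 3 of the 10 genes, against 13% of all genes. Tlr7 had a log2 difference of -0.39 ± 0.12 (unadjusted p 0.00443, adjusted p 0.197), Tlr2 of -0.59 ± 0.19 (0.0058 and 0.205) and Irak3 of -0.43 ± 0.15 (0.0115 and 0.247). In each of them the groups overlapped. The side of the threshold for Tlr7 depends on a single library. Without CLP+VNS replicate 1, its difference was -0.49 with an adjusted p of 0.0387, and the number of genes called over the whole table went from 4 to 284.

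The other 7 genes had differences between -0.46 for Tlr5 and 0.22 for Tlr3. Cd14 was at -0.09 (95% interval -0.38 to 0.20) and Myd88 at -0.10 (95% interval -0.28 to 0.08), the narrowest interval of the 10. The summed neutrophil markers were lower on average in CLP+VNS (3639 ± 1529 CPM, SD) than in CLP (4911 ± 754), with overlapping libraries, and their part in these values was not tested.

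**Figure D3:**
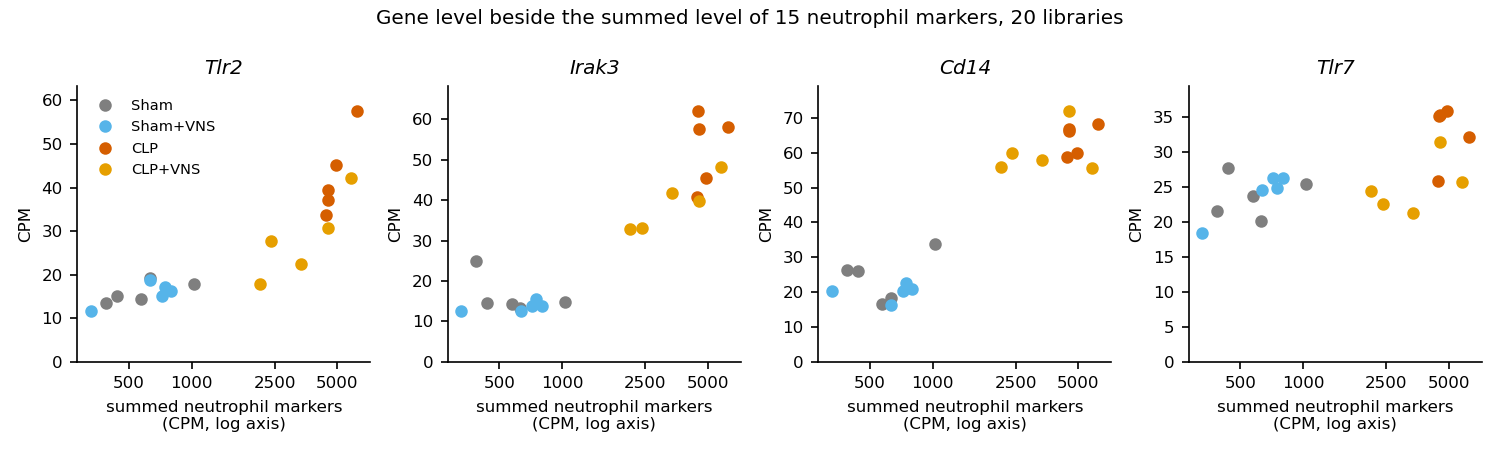
CPM of Tlr2, Irak3, Cd14 and Tlr7 (vertical axes) beside the summed CPM of 15 neutrophil markers (horizontal log axis) in 20 libraries, coloured by group. In the 10 CLP and CLP+VNS libraries the sums run from 2119 to 6217 CPM, Tlr2 from 17.8 to 57.6 CPM and Cd14 from 55.7 to 72.0 CPM.

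In sham-operated animals stimulation gave 0 calls among the 10 genes and 0 among all genes (0%) by edgeR, and 0 of the 10 by DESeq2. At an unadjusted p below 0.05 there were 0 of the 10 genes, against 8.01% of all genes. The largest differences were -0.28 for Cd14 (95% interval -0.58 to 0.02) and -0.26 for Irak3 (95% interval -0.61 to 0.08), and for Myd88 the interval was -0.19 to 0.18. Differences inside these intervals could not be resolved with 5 animals a group.

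**Figure D4:**
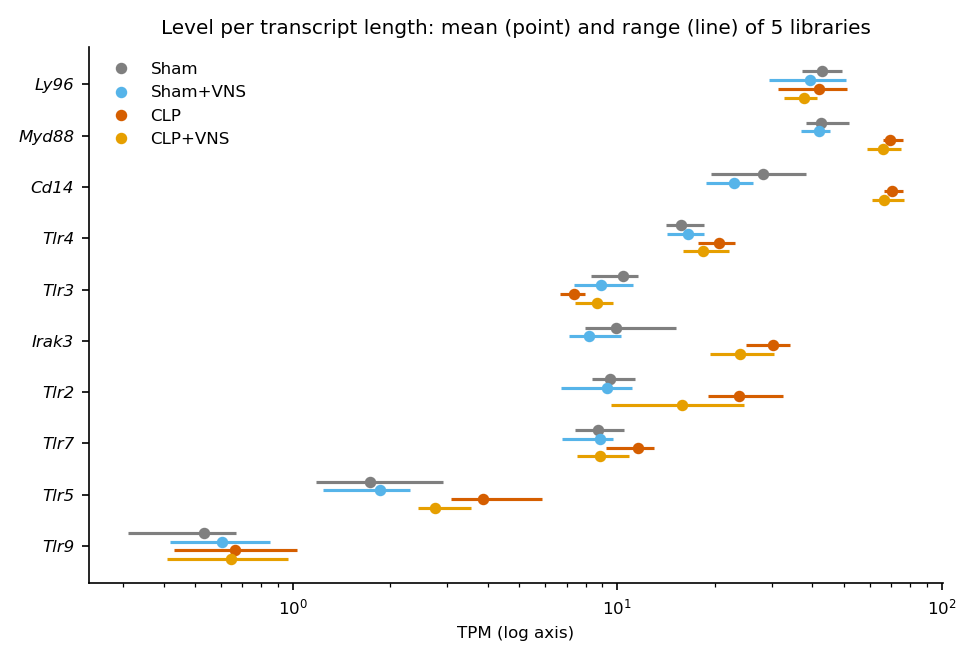
Level of each gene per transcript length (TPM, horizontal log axis) as the mean (point) and range (line) of 5 libraries in each group. In Sham, Ly96 and Myd88 lead at 42.9 and 42.5 TPM; in CLP, Cd14 and Myd88 lead at 70.6 and 69.6 TPM.

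Levels can be compared between genes only per length. In Sham the order of mean TPM was Ly96 42.9 ± 5.1 (SD, n = 5), Myd88 42.5 ± 5.8, Cd14 28.2 ± 7.8, Tlr4 15.7 ± 1.7, Tlr3 10.4 ± 1.3, Irak3 9.90 ± 2.99, Tlr2 9.50 ± 1.29, Tlr7 8.75 ± 1.20, Tlr5 1.73 ± 0.70 and Tlr9 0.534 ± 0.138. Ly96 and Myd88 did not differ beyond their spread, nor did the neighbours from Tlr3 to Tlr7. Ly96 takes the first place in Sham from only 99 to 120 counts per library, and its rank depends on the length that the authors' program assigned to it.

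In CLP the order was Cd14 70.6 ± 4.0 TPM, Myd88 69.6 ± 4.0, Ly96 41.9 ± 7.1, Irak3 30.3 ± 4.5, Tlr2 23.8 ± 5.5, Tlr4 20.6 ± 2.0, Tlr7 11.6 ± 1.4, Tlr3 7.36 ± 0.57, Tlr5 3.85 ± 1.14 and Tlr9 0.666 ± 0.240. Cd14 stood ahead of Ly96 and Myd88, which led in Sham, and Tlr3 stood behind Irak3, Tlr2 and Tlr7, which it led in Sham. Cd14 and Myd88 did not differ beyond their spread, Ly96 overlapped with Irak3, Irak3 with Tlr2 and Tlr2 with Tlr4, and the neighbours from Tlr4 down to Tlr9 did not overlap. Sham+VNS and CLP+VNS kept Tlr5 and Tlr9 in the last places and had Myd88 at 41.9 ± 3.5 and Cd14 at 66.7 ± 6.1 TPM in the first.

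The 6 receptors together summed to 46.7 ± 3.4 TPM in Sham, 46.1 ± 4.0 in Sham+VNS, 67.8 ± 4.4 in CLP and 55.2 ± 5.9 in CLP+VNS. Tlr2 made up 20.3% ± 2.1 of that sum in Sham and 34.8% ± 5.8 in CLP, and no library of the one group reached the other. Tlr3 went the other way, from 22.3% ± 1.8 to 10.9% ± 1.2, again with no overlap. Its own mean went from 10.4 to 7.36 TPM while the sum rose, so its share fell by more than its level. Tlr4 held 33.6% ± 1.7 in Sham and 30.5% ± 4.0 in CLP. Under stimulation Tlr2 held 20.1% ± 2.5 in Sham+VNS and 28.1% ± 7.4 in CLP+VNS, with overlapping libraries. Tlr3 held 19.3% ± 1.7 in Sham+VNS, below its mean in Sham, and 15.9% ± 3.0 in CLP+VNS, again with overlap.

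The other receptors of the family and the genes around them were read from the same fit, for CLP against Sham. Each list is given with the share of its tested genes that was called. It is to be set beside the 40.3% of all genes called in this comparison, 19.8% higher and 20.5% lower. The lists were chosen with earlier results of these data known, so the shares describe the lists and do not test them. Of the 7 other Toll-like receptors, 2 rose and 0 fell (28.6% called, all higher). Tlr1, the partner with which Tlr2 binds triacylated lipoproteins, went from 5.71 ± 1.26 (SD) to 17.9 ± 2.4 CPM, a log2 difference of 1.65 ± 0.15 (adjusted p 1.9e-07), and Tlr6, its partner for diacylated ones, from 14.4 ± 2.0 to 22.4 ± 2.3 CPM, or 0.64 ± 0.12 (adjusted p 0.000252). Tlr1 rose under stimulation too, by 1.17 ± 0.15, whereas Tlr6 at 0.26 ± 0.12 did not pass the test. These 3 related genes have similar stretches, and the sources do not state how reads shared between them were assigned. Tlr13, a receptor for bacterial ribosomal RNA, was the most abundant receptor of the family on average, at 42.1 TPM in Sham and 46.9 TPM in CLP, and did not pass the test (log2 difference 0.25, adjusted p 0.0752).

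Among the other adaptors 3 of 5 rose and 0 fell (60.0% called). Pik3ap1, known as BCAP, gained 0.62 ± 0.11 on the log2 scale, Ticam1, the adaptor of Tlr3 and Tlr4, gained 0.46 ± 0.11, and Tirap, which brings Myd88 to Tlr2 and Tlr4, gained 0.31 ± 0.06. Of 17 signalling kinases and ubiquitin ligases 8 rose and 1 fell (52.9% called), with a median log2 difference of 0.12. Map3k8, the kinase also called Tpl2, rose most, by 1.09 ± 0.10 from 25.7 to 54.8 CPM, followed by Irak2 at 0.46 ± 0.08 and Irak4 at 0.45 ± 0.07. The gene that fell was Tab1, by 0.27 ± 0.06.

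**Figure D5:**
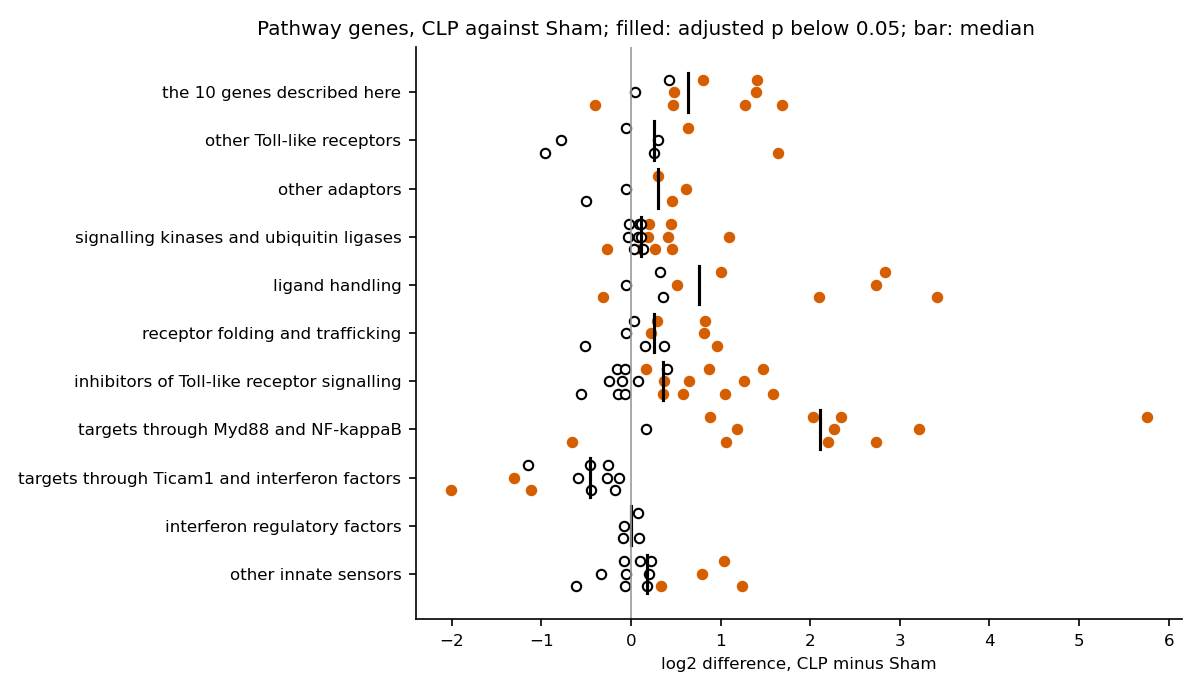
Log2 difference of CLP minus Sham (horizontal axis) for the 10 genes and 10 lists of pathway genes; each point is a tested gene, filled where the adjusted p is below 0.05, and bars are medians. The list of targets named after Myd88 and NF-kappaB has a median of 2.11, and that named after Ticam1 and interferon factors a median of -0.45.

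Ligand handling proteins had 6 rises and 1 fall among 10 tested of 11 (70.0% called). S100a8 and S100a9, the calprotectin subunits that act as Tlr4 ligands and are also neutrophil markers, gained 3.42 ± 0.33 and 2.74 ± 0.29, and Lbp, which carries lipopolysaccharide to Cd14, gained 2.83 ± 0.24 from 35.0 to 249 CPM. Of 10 genes of receptor folding and trafficking 5 rose and 0 fell, among them the endosomal proteases Ctsl (0.96 ± 0.12) and Ctss (0.82 ± 0.12) and the chaperone Hsp90b1 (0.81 ± 0.16). Of 19 other inhibitors of the pathway 10 rose and 0 fell (52.6% called). For the kinases and ligases, the trafficking genes and the inhibitors the share called in either direction was at most 52.9%, against 40.3% of all genes. By direction they stood further from all genes. Because the lists were chosen with earlier results known, this distance is only a description. Higher were 47.1% of the kinases and ligases, 5 of 10 trafficking genes and 52.6% of the inhibitors, against 19.8% of all genes. Of these lists only Tab1 was lower, where 20.5% of all genes were. Zc3h12a, the RNase Regnase-1, gained 1.59 ± 0.10, the phosphatase Dusp1 gained 1.47 ± 0.15, and Socs3 gained 1.26 ± 0.18.

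Lists of targets named after both branches follow, without a test of one list against the other. Their genes are not specific to the branch named, so the medians do not measure its activity. Of 15 genes reached through Myd88 and NF-kappaB, 12 could be tested, 10 rose and 1 fell (91.7% called), and the median was 2.11. The other 3, Il6, Il12b and Ccl4, were too low to test. Cxcl2 was at 5.82 ± 2.17 CPM in CLP and at 0.0981 ± 0.0799 CPM in Sham, about 1 count per library, so no fold is given. Cxcl1 gained 3.22 ± 0.35 and Tnf 2.73 ± 0.25, while the adhesion molecule Icam1, chosen here as the exception after its value was seen, fell by 0.65 ± 0.09. Of 12 genes reached through Ticam1 and interferon factors, 11 were tested and Ifnb1 was not analysed here; 0 rose and 3 fell, with a median of -0.45, and the 27.3% that fell are near the 20.5% of all genes that were lower. Mx2 went from 79.2 ± 71.2 to 19.7 ± 10.9 CPM, Mx1 from 35.2 ± 24.8 to 14.3 ± 2.5 CPM and Isg15 from 16.2 ± 9.5 to 7.46 ± 1.86 CPM, with adjusted p values of 0.00557, 0.00687 and 0.0101. The Sham libraries varied widely in these genes.

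The 4 interferon regulatory factors gave 0 calls, with unadjusted p values from 0.19 to 0.423. Of 13 other innate sensors 4 rose and 0 fell (30.8% called, all higher, where 19.8% of all genes were higher). The rises were led by Trem1 (1.24 ± 0.20), Clec4e (1.04 ± 0.31) and Nlrc4 (0.79 ± 0.19). In CLP+VNS against Sham+VNS, where 27.3% of all genes were called, the targets through Myd88 and NF-kappaB again had 10 higher and 1 lower, the inhibitors 10 higher and 1 lower, and the kinases and ligases 7 higher and 2 lower. Ligand handling and trafficking each had 4 higher and 0 lower, and the innate sensors 3 higher and 1 lower. The other Toll-like receptors and the other adaptors had 1 higher each, and the targets through Ticam1 and the interferon regulatory factors had 0 calls. Beside these lists, 12 of 14 tested neutrophil markers rose after CLP and 1 fell, 7 of 13 monocyte and macrophage markers rose and 0 fell, and all 7 T cell markers and 4 of 7 B cell markers fell. Of 11 lung epithelial markers 1 rose and 4 fell, and of 7 endothelial markers 1 rose and 3 fell. The summed endothelial markers ran from 3188 to 3800 CPM in Sham and from 2719 to 3401 CPM in CLP, with overlap. Under stimulation they ran from 3466 to 4077 CPM with the sham operation and from 3040 to 4781 CPM with CLP. The part of these cells in the values above was not tested.

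For each of the 10 genes the 2 genes with the most similar pattern were sought among 13314 genes, by the root mean square difference in log2 CPM over the 20 libraries after centring each gene on its mean. Closest to Tlr2 were Il1rn, the interleukin 1 receptor antagonist, at 0.16, and Glipr2 at 0.17, where the median gene was at 0.69. A gene that varies little is near to many others, so each distance is given with that of the median gene. Closest to Irak3 were Bcl3 and Osmr, both at 0.24 (median gene 0.87), and to Cd14 Ackr3 at 0.20 and Fos at 0.21 (0.82). Myd88 was matched by Tspo and Acvr1b, both at 0.11 (0.45), and Tlr5 by Hk2 at 0.28 and Lpin1 at 0.29 (0.65). Tlr7 was nearest to Rel, an NF-kappaB subunit, at 0.14 and to Cstf3 at 0.15 (0.33). Tlr4 was nearest to the phosphate transporter Slc34a2 and to Mfsd11, both at 0.12 (0.32). Tlr3 was nearest to Trim21 and Cdk14, both at 0.15 (0.29). For Ly96 the nearest were Hnrnpc at 0.12 and Rps26 at 0.13 (0.27), and for Tlr9 Ksr1 at 0.25 and Ndufaf7 at 0.30 (0.44). Tlr3, Tlr4, Tlr7 and Ly96 varied least of the 10 over the libraries. The points share the libraries and their depth, and the measure is a description.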

How the data were processed

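Whole-lung RNA of 20 rats (4 groups of 5) was sequenced as poly(A)-selected, strand-marked paired-end libraries, per the labels' protocols. The deposited gene and transcript tables hold the authors' expected counts per library (91.5% whole numbers), with deposited TPM and FPKM values beside them; the build is mRatBN7.2 per the submitters' processing notes, and aligner and counting program: not given in the sources used here. Counts were rounded and tested with edgeR 4.0.16 (robust quasi-likelihood, TMM, a filter with a count minimum of 10, 4 group means, 14794 genes of 19060 and 38195 transcripts of 61247, Benjamini-Hochberg, threshold 0.05, two-sided). CPM are per library total after TMM, and SE is the log2 difference divided by the root of F. Total counts were 13729654 to 14453188 per library, and Spearman correlations within groups were 0.974 to 0.993. The 5 animals per group are separate rats per the series' design.

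Alternatives were total-count and RLE scaling, no filter, DESeq2 1.42.0, the compared groups alone, limma 3.58.1 on log2(TPM + 1), a replicate block, FPKM in place of TPM, and leaving out each library. On counts simulated for CLP against Sham with 200 of 14794 genes changed, 80% of those changed by 1 and 93% of those changed by 2 on the log2 scale were recovered, with 3.89% false calls. In the data far more genes were called in that comparison, 40.3%. Tlr3, Tlr4, Tlr7 and Myd88 differed by less than 1 there, so the simulated rates do not cover them. All 10 genes matched RefSeq by gene ID; 9 had a promoter entry. No gene failed the filter, so the exact permutation test planned for low genes was not needed. The genes and lists were chosen with earlier results of these data known. All 10 genes are named in every comparison; of other lists, up to 3 called genes with the largest difference after CLP, and for each gene the nearest patterns.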

Additional observations from a re-analysis of the deposited data

Results flagged for a closer look

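In 4 of the 40 sets of 5 libraries (10 genes in 4 groups), 1 library was separated from the nearest of the others by more than 0.71 of the whole range, Dixon's limit; chance alone gives about 1 in 20 such sets. Tlr5 in CLP replicate 1 was at 17.7 CPM, where the other CLP libraries were at 10.9 to 11.7. Irak3 in Sham replicate 1 was at 24.8 CPM, where the others were at 13.2 to 14.8. That library also held 1412 CPM of summed adipocyte markers. Cd14 in CLP+VNS replicate 1 was at 72.0 CPM against 55.7 to 59.8 in the others. Tlr7 in Sham+VNS replicate 3 was low, at 18.4 CPM against 24.6 to 26.3, and that library had the lowest summed neutrophil markers of all 20, 328 CPM. The part of these marker levels in the values was not tested.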

How the results depend on the processing

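For the 10 genes in 5 comparisons, 940 values were recomputed under the alternatives. Of these, 924 stayed on the same side of the threshold within 1 SE, or kept a call in the same direction, 12 uncalled values moved by more than 1 SE, 4 crossed into significance and 0 called values lost their call or reversed. In 12 results an uncalled difference near 0 changed sign, 40 times in all. The 8 calls of CLP against Sham and the 4 of CLP+VNS against Sham+VNS were kept by every alternative run. Leaving out 1 library gave 8 to 8 calls in the first, 4 to 5 in the second, 0 to 1 in CLP+VNS against CLP (1 without CLP+VNS replicate 1), 0 to 0 in the other comparison and in the interaction, and 8 to 11 transcripts. The crossings were Tlr5 in CLP+VNS against Sham+VNS (adjusted p 0.0329 with DESeq2, 0.0299 with the compared groups alone, 0.0402 without Sham+VNS replicate 1; range 0.0299 to 0.153) and Tlr7 in CLP+VNS against CLP. Total-count scaling moved the median of all genes by at most 0.05. FPKM gave the same order of levels as TPM. Within a library these values differ only by a common scale, so this order was nearly fixed in advance. It does not test the lengths used.

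The labels do not say that equal replicate numbers pair animals. After each gene's group mean was subtracted from its log2 CPM, same-numbered libraries correlated at -0.14 to 0.18. Of these, 2 of 3 pairs were over 0.1 in CLP+VNS against CLP and none in the other comparisons. With the replicate block the counts stayed at 8, 4, 0, 0 and 0; the largest adjusted p of a call was then 0.0337, for Tlr2 in CLP+VNS against Sham+VNS. Depth limits Tlr9 most, at 9 to 32 counts per library.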
